A study of Homo sapiens with 9 samples.

Results

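The YAP and TEAD pathway was followed through 10 genes in cetuximab-resistant colorectal cancer cells: the target genes CCN1, CCN2, ANKRD1, AMOTL2, LATS2 and AJUBA, the coactivators YAP1 and WWTR1 (TAZ), and the DNA-binding partners TEAD1 and TEAD4. They were picked by symbol from the 58920 genes of the count tables, and all 10 were found. LIM1215 is a colorectal cancer cell line that starts out sensitive to cetuximab, an antibody that blocks the epidermal growth factor receptor. LIM1215-R1 and LIM1215-R2 were derived from it independently by exposure to stepwise higher cetuximab concentrations over months, while LIM1215-parental was kept alongside without the antibody. Both resistant lines are mixed populations, not clones, with activating HRAS mutations in part of the cells. RNA was taken from untreated cells of the 3 lines in basal culture medium, and 3 libraries per line were sequenced. The study calls these replicates technical, so p-values measure only the spread between these libraries. Whatever else set the cultures apart at harvest cannot be told apart from the line.

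YAP1 and WWTR1 carry no DNA-binding domain of their own and switch on genes by binding to TEAD transcription factors. The Hippo kinases MST1 and MST2 (genes STK4 and STK3) activate LATS1 and LATS2, which phosphorylate YAP1 and WWTR1 and so keep them out of the nucleus. Some targets feed back on the pathway: LATS2 is such a kinase, and AMOTL2 belongs to the angiomotins, which tether YAP1 in the cytoplasm. In the intestine, YAP1 is known for its part in epithelial repair after injury and in colorectal tumour growth.

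The libraries held 13737416 to 18725014 counts on 20379 to 21269 detected genes. By total counts alone, 3 counts, the upper limit that a count of 0 allows, corresponded to 0.160 to 0.218 CPM (counts scaled to the size of the library). All other CPM were also scaled with TMM factors of 0.984 to 1.02. The 7 epithelial markers of the colon, among them EPCAM, CDH1 and KRT18, summed to 11824 to 15475 CPM, most of it from KRT8 and KRT18. They did not move one way: in both resistant lines KRT8, KRT18 and VIL1 were higher than in parental cells, and EPCAM, CDX1 and CDX2 were lower (log2 differences of -0.26, -0.85 and -0.44 in LIM1215-R1, and of -0.32, -0.65 and -0.54 in LIM1215-R2). The part of these markers in the results was not tested. The 6 fibroblast markers summed to 0.457 to 2.18 CPM, with PDGFRA and COL1A2 at 0 in every library, and the 3 endothelial markers to at most 0.722 CPM. Of 3 leukocyte markers, CD3E and PTPRC were at 0, and CD68 alone gave 6.79 to 10.1 CPM in parental libraries, 11.7 to 14.2 CPM in those of LIM1215-R1 and 8.56 to 10.5 CPM in those of LIM1215-R2, and its part in the results was not tested. In such bulk RNA, fewer cells that express a gene and less RNA per cell cannot be told apart.

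All 10 genes passed the filter of at least 10 counts over the 9 libraries and were tested among 19102 genes with edgeR's quasi-likelihood test, called at a Benjamini-Hochberg adjusted p of at most 0.01. In LIM1215-R1 against parental cells, 3 of the 10 were higher (ANKRD1, CCN1 and TEAD1), beside 14.0% of all genes tested, and 3 were lower (AMOTL2, AJUBA and WWTR1), beside 13.4%. In LIM1215-R2 against the same parental libraries, 2 were higher (ANKRD1 and TEAD1), beside 12.3%, and 4 were lower (AMOTL2, LATS2, AJUBA and WWTR1), beside 11.6%. Between the resistant lines, LIM1215-R2 was higher than LIM1215-R1 in WWTR1 alone, beside 3.39% of all genes, and lower in ANKRD1 and LATS2, beside 3.77%. Among the 13412 genes averaging 10 counts or more, 18.6% were higher and 18.0% lower in LIM1215-R1, and 16.6% and 15.4% in LIM1215-R2. For LIM1215-R2 against LIM1215-R1, their shares were 4.75% and 5.17%. The shares beside later gene lists cover all genes tested too, and are thus smaller than among these better counted genes. With the additional requirement of an absolute log2 fold change (log2FC) of at least 1.5, only ANKRD1 remained in both comparisons with parental cells, beside 5.14% of genes in LIM1215-R1 and 4.82% in LIM1215-R2. None of the 10 passed it between the resistant lines, beside 0.764%, although 7 had an unadjusted p under 0.05 there. The median log2FC of the 10 genes was 0.044 in LIM1215-R1, -0.099 in LIM1215-R2 and -0.15 between the resistant lines, against -0.011, -0.0037 and -0.0011 over all genes tested. The pathway genes thus did not move one way. Among the targets, ANKRD1 rose steeply in both resistant lines, and AMOTL2 and AJUBA fell moderately in both. CCN1 was called higher in LIM1215-R1 only, and LATS2 lower in LIM1215-R2 only.

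**Figure D1:**
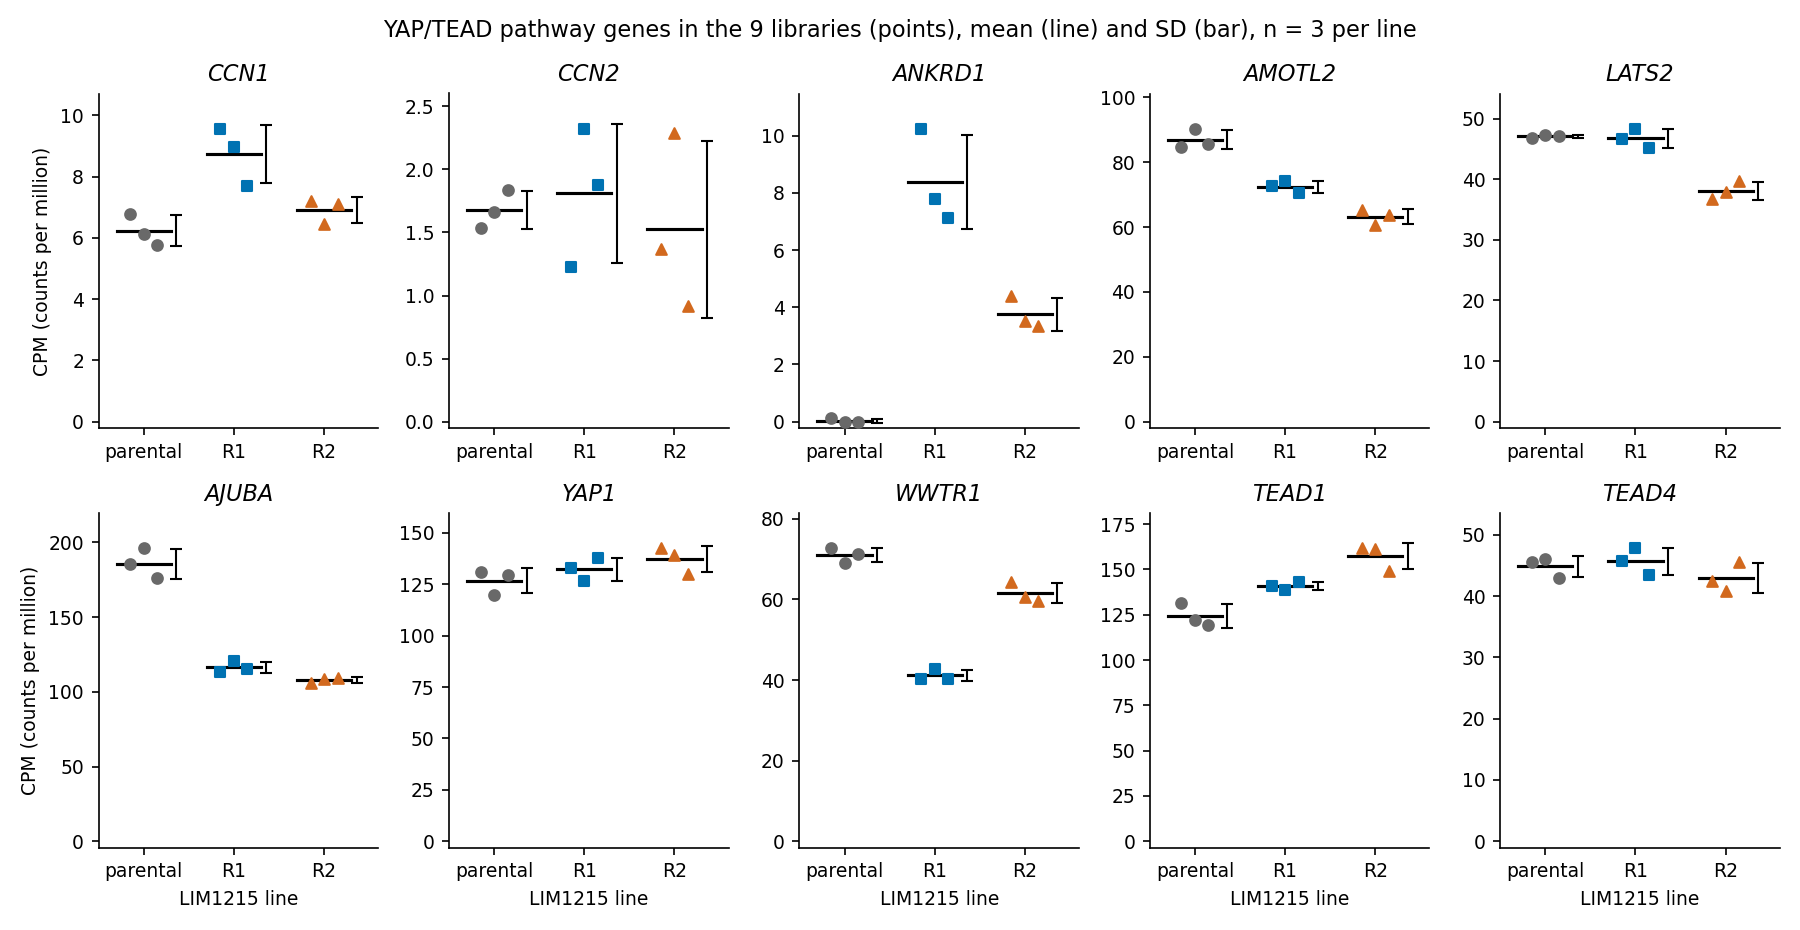
CPM (y axis, linear, starting at 0) of each pathway gene in the 3 libraries of each line (points; parental, LIM1215-R1 and LIM1215-R2), with the mean (horizontal line) and SD (vertical bar). ANKRD1 lies between 0 and 0.118 CPM in parental cells and between 3.33 and 10.2 CPM in the resistant lines, AJUBA falls in both resistant lines, WWTR1 is lowest in LIM1215-R1, and CCN2 overlaps between all lines.

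ANKRD1 (hg38 chr10:90912096-90921087, minus strand), which encodes a muscle ankyrin repeat protein and is a widely used readout of YAP activity, showed the largest difference among the 10 genes. It was at 0.118, 0 and 0 CPM in the parental libraries, at 10.2, 7.78 and 7.13 CPM in LIM1215-R1, and at 4.40, 3.53 and 3.33 CPM in LIM1215-R2. The lines did not overlap, and every LIM1215-R1 library was above every LIM1215-R2 library. As counts, these are 2 in the parental libraries together, 405 in those of LIM1215-R1 and 182 in those of LIM1215-R2. The ratio of CPM built from these counts was 209 for LIM1215-R1 (exact 95% counting interval 57.6 to 1734) and 93.9 for LIM1215-R2 (25.6 to 781), intervals that cover counting error only. The fitted log2FC was 7.46 (adjusted p = 1.49e-14) in LIM1215-R1 and 6.30 (adjusted p = 1.99e-11) in LIM1215-R2. Both parental counts came from replicate 1; without that library the parental level was 0 and the fitted log2FC moved to 10.09 and 8.93, values that depend on the prior count. LIM1215-R2 was 2.23-fold lower than LIM1215-R1 (log2FC -1.15 ± 0.178 SE, adjusted p = 3.86e-05), and this call held under every alternative that kept the gene in the test, with log2FC from -1.29 to -0.99 and adjusted p up to 0.00131.

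Among genes with a mean of at least 1 CPM, the levels most like those of ANKRD1 over the 9 libraries belonged to SLC2A3, a glucose transporter (Pearson r of log2 CPM 0.996), RGS16, a regulator of G protein signalling (0.9951), and CEACAM1, a cell adhesion molecule (0.9945). These r values are descriptions over 3 libraries each of 3 lines. SLC2A3 had a mean of 6.97 CPM in parental cells, 47.5 CPM in LIM1215-R1 and 33.0 CPM on average in LIM1215-R2. Unlike ANKRD1, each of the 3 genes was already present in parental cells, at means between 4.79 and 7.91 CPM.

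CCN1 (CYR61) and CCN2 (CTGF), secreted matricellular proteins and the most cited direct YAP targets, differed far less. CCN1 (chr1:85580761-85584589, plus strand) was at 6.79, 6.14 and 5.78 CPM in parental libraries, at 9.57, 8.98 and 7.70 CPM in LIM1215-R1 and at 7.20, 6.44 and 7.12 CPM in LIM1215-R2. All LIM1215-R1 libraries were above those of both other lines, and LIM1215-R2 overlapped the parental range. CCN1 was 1.40-fold higher in LIM1215-R1 (log2FC 0.49 ± 0.129 SE, adjusted p = 0.00352), a call that was lost without parental replicate 3 (adjusted p = 0.0265), LIM1215-R1 replicate 1 (0.0228) or LIM1215-R1 replicate 2 (0.0114). In LIM1215-R2 its log2FC was 0.15 (95% confidence interval -0.12 to 0.43, adjusted p = 0.442), and LIM1215-R2 against LIM1215-R1 gave -0.34 (adjusted p = 0.0854).

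CCN2 (chr6:131948176-131951372, minus strand) was at 1.53, 1.66 and 1.84 CPM in parental libraries, at 1.23, 2.32 and 1.88 CPM in LIM1215-R1 and at 1.37, 2.29 and 0.914 CPM in LIM1215-R2, which is 14 to 37 counts per library. The lines overlapped, and the resistant libraries spread on both sides of the parental ones. Its log2FC was 0.10 (95% confidence interval -0.50 to 0.70, adjusted p = 0.838) in LIM1215-R1 and -0.14 (-0.75 to 0.48, adjusted p = 0.788) in LIM1215-R2. Changes within these intervals were not excluded. Of the close paralogs CCN3, CCN4, CCN5, CCN6, ANKRD2 and ANKRD23, only CCN3 and ANKRD23 had enough counts to be tested, and neither was called in any comparison (unadjusted p under 0.05 in 0 of them).

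Promoter windows of RefSeq (GRCh38.p14, 250 bases before to 50 after a start) were found for 7 of the 10 genes, in 10 windows. CCN1, TEAD1 and TEAD4 had no entry. The TEAD motif GGAATG, searched on both strands, occurred 9 times in 6 of the 7 genes and in 6 of the 10 windows, whereas 14.0% of all 35116 windows held it. The AP-1 motif TGANTCA, searched likewise, occurred in ANKRD1 alone, beside 7.71% of all windows, and the CArG box of SRF in none, beside 1.29%. YAP1, which did not pass the test, also holds the TEAD motif, 162 bases before its start, and its window is not shown. The windows of 4 target genes are shown, because their genes carry the motif in the 250 bases before a start and went different ways in the resistant lines: ANKRD1 rose, CCN2 did not pass the test, and AMOTL2 and AJUBA fell. They run 5′ to 3′ on the gene's strand up to the base before the start, and capitals mark the TEAD motif on either strand and, in ANKRD1, also the AP-1 motif. All 4 genes lie on the minus strand, and the windows are chr10:90921088-90921337 for ANKRD1, chr6:131951373-131951622 for CCN2, chr3:134374448-134374697 for AMOTL2 and chr14:22976843-22977092 for AJUBA.
ANKRD1: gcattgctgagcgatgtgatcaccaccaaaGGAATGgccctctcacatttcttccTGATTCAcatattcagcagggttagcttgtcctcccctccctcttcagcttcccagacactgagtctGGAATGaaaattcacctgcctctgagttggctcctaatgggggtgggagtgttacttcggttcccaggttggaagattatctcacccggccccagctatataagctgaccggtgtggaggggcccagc
CCN2: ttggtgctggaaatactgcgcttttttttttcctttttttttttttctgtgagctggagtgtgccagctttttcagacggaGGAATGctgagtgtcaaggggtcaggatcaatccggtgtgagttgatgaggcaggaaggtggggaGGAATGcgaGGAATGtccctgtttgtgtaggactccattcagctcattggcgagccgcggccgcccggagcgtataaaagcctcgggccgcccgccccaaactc
AMOTL2: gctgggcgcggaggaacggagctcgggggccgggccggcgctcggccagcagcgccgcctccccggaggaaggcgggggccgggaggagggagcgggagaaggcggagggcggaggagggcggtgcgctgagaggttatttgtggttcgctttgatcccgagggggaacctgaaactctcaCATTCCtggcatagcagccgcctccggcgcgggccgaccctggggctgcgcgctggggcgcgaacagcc
AJUBA: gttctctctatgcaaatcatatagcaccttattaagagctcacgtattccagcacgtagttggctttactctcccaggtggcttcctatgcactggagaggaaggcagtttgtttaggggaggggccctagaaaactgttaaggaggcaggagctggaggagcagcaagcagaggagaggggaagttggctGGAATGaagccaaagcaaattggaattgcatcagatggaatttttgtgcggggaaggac
ANKRD1 holds the TEAD motif at 220 and 128 bases before the start, with the AP-1 motif between them at 195. CCN2 holds it at 169, 104 and 95 bases before the start, AMOTL2 at 69 and AJUBA at 59, the last pair each in 1 of 2 listed windows. The number of motifs did not order these genes by their change, since CCN2 has 3 and ANKRD1 has 2. These matches describe letters in a window, not binding.

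**Figure D2:**
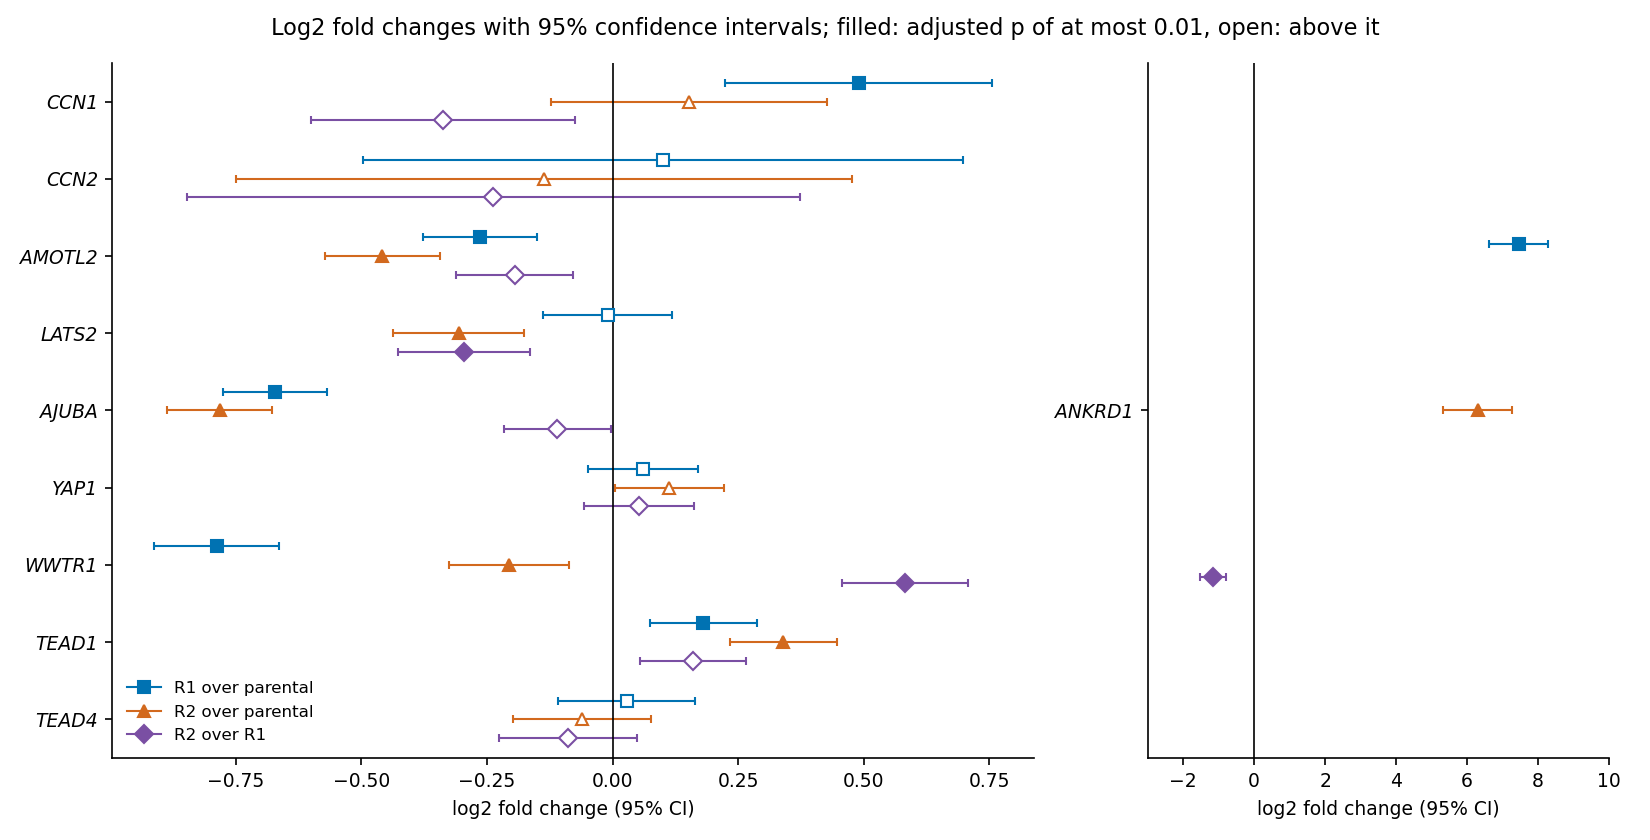
Log2FC (x axis) with 95% confidence intervals for LIM1215-R1 over parental, LIM1215-R2 over parental and LIM1215-R2 over LIM1215-R1, with filled symbols for an adjusted p of at most 0.01. ANKRD1 has its own axis because its log2FC of 7.46 and 6.30 exceed the others, which all lie between -0.79 and 0.58.

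Targets that restrain the pathway, AMOTL2 and LATS2, were lower in LIM1215-R2, and AMOTL2 also in LIM1215-R1. AMOTL2 (chr3:134355347-134375479, minus strand) was at 84.8, 90.4 and 85.8 CPM in parental libraries, at 72.6, 74.2 and 70.5 CPM in LIM1215-R1 and at 65.3, 60.6 and 63.9 CPM in LIM1215-R2. The 3 lines did not overlap. The gene was 1.20-fold lower in LIM1215-R1 (log2FC -0.26 ± 0.055 SE, adjusted p = 0.000384) and 1.37-fold lower in LIM1215-R2 (log2FC -0.46 ± 0.056 SE, adjusted p = 1.83e-07). Between the resistant lines the log2FC was -0.19 (adjusted p = 0.0216).

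LATS2 (chr13:20973036-21061586, minus strand) was at 46.7, 47.2 and 47.2 CPM in parental libraries, at 46.7, 48.3 and 45.2 CPM in LIM1215-R1 and at 36.7, 37.8 and 39.6 CPM in LIM1215-R2. Parental and LIM1215-R1 libraries overlapped, and all LIM1215-R2 libraries were below both. LATS2 was 1.24-fold lower in LIM1215-R2 than in parental cells (log2FC -0.31 ± 0.064 SE, adjusted p = 0.000376). It was 1.23-fold lower than in LIM1215-R1 (log2FC -0.30, adjusted p = 0.00192), but that call was lost without LIM1215-R1 replicate 2 (adjusted p = 0.0101), LIM1215-R2 replicate 1 (0.0216) or LIM1215-R2 replicate 2 (0.0146). In LIM1215-R1 the log2FC was -0.0098 (95% confidence interval -0.14 to 0.12).

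AJUBA (chr14:22971177-22982551, minus strand), a LIM domain protein that binds LATS kinases and hinders their action on YAP1, had the largest decrease among the targets. Its level was 185, 196 and 176 CPM in parental libraries, 113, 121 and 116 CPM in LIM1215-R1 and 106, 109 and 109 CPM in LIM1215-R2. The resistant libraries were all far below the parental ones. The gene was 1.59-fold lower in LIM1215-R1 (log2FC -0.67 ± 0.051 SE, adjusted p = 1.99e-11) and 1.72-fold lower in LIM1215-R2 (log2FC -0.78 ± 0.051 SE, adjusted p = 9.23e-13). LIM1215-R2 lay just below LIM1215-R1 in every library, but the difference did not pass the test (log2FC -0.11, adjusted p = 0.187).

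Per kilobase of exon, AJUBA was at 31.6 ± 1.72 CPM per kb (SD, n = 3) in parental cells, 19.8 ± 0.623 in LIM1215-R1 and 18.3 ± 0.299 in LIM1215-R2. It made up 80.2%, 73.5% and 70.5% of the summed level per length of AJUBA and its paralogs LIMD1 and WTIP in the 3 lines. LIMD1 was at 6.63, 6.14 and 6.97 CPM per kb. AJUBA stayed the most abundant of the 3 in every line. AMOTL2 made up 89.4% of the summed level per length of the angiomotins in parental cells, 94.3% in LIM1215-R1 and 94.95% in LIM1215-R2. Its paralog AMOT fell in both lines (log2FC -1.31 and -1.68, adjusted p = 2.15e-09 and 3.46e-11). LATS2 and LATS1 were at similar levels per length, 8.38 and 7.32 CPM per kb in parental cells, and LATS2 took 53.4% of their sum in parental cells, 55.0% in LIM1215-R1 but 47.7% in LIM1215-R2.

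Of the coactivators, YAP1 did not pass the test in any comparison, whereas WWTR1 fell in both resistant lines. YAP1 (chr11:102110447-102233424, plus strand) was at 131, 119.85 and 129.5 CPM in parental libraries, at 133, 127 and 138 CPM in LIM1215-R1 and at 142, 139 and 130.1 CPM in LIM1215-R2. The lines overlapped throughout. Its log2FC was 0.06 (95% confidence interval -0.049 to 0.17, adjusted p = 0.426) in LIM1215-R1 and 0.11 (0.0041 to 0.22, adjusted p = 0.11) in LIM1215-R2. Once GC and length trends were removed, YAP1 was called higher in both (log2FC 0.16 and 0.15, adjusted p = 0.000914 and 0.0028).

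WWTR1 (chr3:149517235-149736714, minus strand) was at 72.7, 69.1 and 71.2 CPM in parental libraries, at 40.3, 42.7 and 40.4 CPM in LIM1215-R1 and at 64.3, 60.6 and 59.7 CPM in LIM1215-R2. The lines did not overlap, with LIM1215-R1 far lowest. WWTR1 was 1.73-fold lower in LIM1215-R1 (log2FC -0.79 ± 0.060 SE, adjusted p = 2.52e-11). The decrease in LIM1215-R2 was 1.15-fold (log2FC -0.21 ± 0.058 SE, adjusted p = 0.00666) and was lost with no filter except 1 count (adjusted p = 0.0135) and without parental replicate 1 (0.0344) or 3 (0.025), LIM1215-R1 replicate 3 (0.0107), or LIM1215-R2 replicate 2 (0.0346) or 3 (0.0308). LIM1215-R2 was 1.5-fold higher than LIM1215-R1 (log2FC 0.58 ± 0.061 SE, adjusted p = 9.08e-08), the strongest difference between the resistant lines by adjusted p among the 10 genes.

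Per length, YAP1 was the main coactivator transcript in every line, at 20.1 ± 0.954 CPM per kb (SD, n = 3) in parental cells against 8.50 ± 0.219 for WWTR1. YAP1 made up 70.3% of their sum in parental cells, 81.0% in LIM1215-R1 and 74.7% in LIM1215-R2. Together they reached 28.6, 25.9 and 29.1 CPM per kb.

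**Figure D3:**
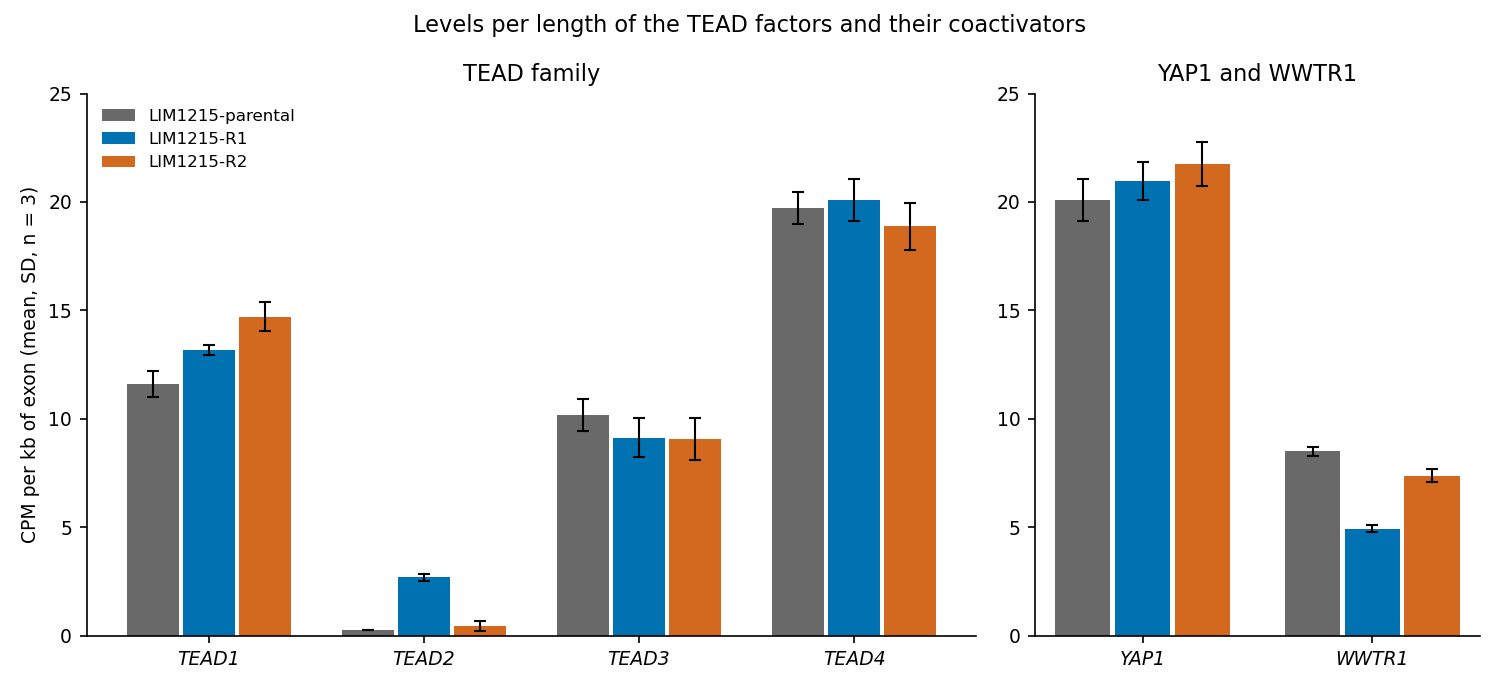
CPM per kb of exon (y axis, linear) of TEAD1 to TEAD4 and of YAP1 and WWTR1 in the 3 lines (bars, mean; error bars, SD over 3 libraries). TEAD4 and YAP1 have the highest level per length of each group in every line, TEAD1 increases from 11.6 to 13.2 and 14.7, and TEAD2 is visible in LIM1215-R1 at 2.69.

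TEAD1 rose in both resistant lines and TEAD4 did not pass the test in either. TEAD1 (chr11:12674421-12944737, plus strand) was at 132, 122 and 119 CPM in parental libraries, at 141, 138 and 143 CPM in LIM1215-R1 and at 162, 161 and 149 CPM in LIM1215-R2. The lines did not overlap, and LIM1215-R2 was highest. The increase was 1.27-fold in LIM1215-R2 (log2FC 0.34 ± 0.051 SE, adjusted p = 5.74e-06) and 1.13-fold in LIM1215-R1 (log2FC 0.18 ± 0.052 SE, adjusted p = 0.00675). The call in LIM1215-R1 was lost with scaling by total counts only (adjusted p = 0.0259), in a fit to the 6 libraries compared (0.0115), and without parental replicate 2 (0.0159) or 3 (0.055), LIM1215-R1 replicate 1 (0.0126) or 3 (0.0372), or LIM1215-R2 replicate 2 (0.0114). Between the resistant lines the log2FC was 0.16 (adjusted p = 0.0382), and it ranged from 0.035 to 0.19 over the alternatives. Against parental cells, the alternatives gave 0.15 to 0.34 in LIM1215-R1 and 0.31 to 0.38 in LIM1215-R2. The size of the gap between the resistant lines thus depended on the processing.

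TEAD4 (chr12:2959330-3040676, plus strand) was at 45.6, 46.1 and 42.9 CPM in parental libraries, at 45.8, 47.8 and 43.5 CPM in LIM1215-R1 and at 42.4, 40.8 and 45.7 CPM in LIM1215-R2. All 3 lines overlapped. Its log2FC was 0.03 (95% confidence interval -0.11 to 0.17) in LIM1215-R1 and -0.06 (-0.20 to 0.076) in LIM1215-R2.

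Among the 4 TEAD genes, TEAD4 had the highest level per length, 19.7 ± 0.747 CPM per kb (SD, n = 3) in parental cells, followed by TEAD1 at 11.6 ± 0.610 and TEAD3 at 10.2 ± 0.740. This order rests on the exon lengths used, 10.7 kb for TEAD1 and 2.275 kb for TEAD4. In CPM, TEAD1 had a mean of 124 and TEAD4 of 44.9 in parental cells. The share of TEAD1 in the summed level per length was 27.8% in parental cells, 29.2% in LIM1215-R1 and 34.1% in LIM1215-R2. TEAD2, the remaining paralog, was at 0.767, 0.795 and 0.788 CPM in parental libraries, at 7.67, 8.54 and 7.88 CPM in LIM1215-R1 and at 2.14, 1.11 and 0.849 CPM in LIM1215-R2. Only LIM1215-R1 stood clear of the other lines by several-fold. TEAD2 rose in LIM1215-R1 (log2FC 3.35, adjusted p = 5.28e-12) and was lower in LIM1215-R2 than in LIM1215-R1 (log2FC -2.53, adjusted p = 1.8e-09), while LIM1215-R2 against parental cells gave 0.82 (adjusted p = 0.0507). Its share of the TEAD family per length was still only 5.97% in LIM1215-R1. The TEAD cofactors VGLL4 (log2FC -0.31 in LIM1215-R1 and -0.41 in LIM1215-R2) and VGLL3 (-0.73 and -0.65) fell in both lines, with adjusted p of at most 7.99e-05.

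Ranked by level per length in parental cells, the 10 genes ran from AJUBA (31.6 CPM per kb) through YAP1 (20.1), TEAD4 (19.7), AMOTL2 (13.4), TEAD1 (11.6), WWTR1 (8.50), LATS2 (8.38), CCN1 (1.69) and CCN2 (0.718) to ANKRD1 (0.0220). YAP1 and TEAD4 overlapped between libraries, as did WWTR1 and LATS2, and the other neighbours did not. In LIM1215-R1 the first ranks were YAP1 (21.0), TEAD4 (20.1) and AJUBA (19.8), which overlapped. ANKRD1 moved past CCN1 and CCN2 in both resistant lines, to 4.69 CPM per kb in LIM1215-R1 and 2.10 in LIM1215-R2, against 2.37 and 1.87 for CCN1, which it overlapped in LIM1215-R2 only. In LIM1215-R1 it thereby reached the range of WWTR1 (4.92), whereas in LIM1215-R2 it stayed below WWTR1 (7.37) and LATS2 (6.78).

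Of 6 genes of the Hippo kinase core (STK3, STK4, SAV1, MOB1A, MOB1B and LATS1), LIM1215-R1 was higher in 1 and lower in 1, beside 14.0% and 13.4% of all genes tested. LIM1215-R2 was higher in 2 and lower in 0, beside 12.3% and 11.6%. SAV1, the scaffold of the MST kinases, rose from a mean of 33.7 CPM in parental cells to 63.6 CPM in LIM1215-R1 and to 54.0 CPM in LIM1215-R2 (log2FC 0.92 and 0.68, adjusted p = 5.1e-12 and 2.4e-09). MOB1B was lower in LIM1215-R1 (log2FC -0.30, adjusted p = 0.00202), though not without parental replicate 1 (0.0223) or LIM1215-R1 replicate 2 (0.017), nor once GC and length trends were removed, where the log2FC was -0.095 (0.216). STK4 was higher in LIM1215-R2 (log2FC 0.20, adjusted p = 0.00797), with an adjusted p of 0.0122 to 0.0804 when any 1 parental library, LIM1215-R1 replicate 3, or LIM1215-R2 replicate 1 or 2 was left out, and of 0.0144 with total counts.

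Of 17 upstream regulators, 16 could be tested. LIM1215-R1 was higher in 2 (WWC3 and NF2) and lower in 5 (TAOK1, TAOK3, WWC2, AMOT and FAT4), beside 14.0% and 13.4% of all genes tested. LIM1215-R2 was higher in 1 (WWC3) and lower in 4 (WWC2, WTIP, AMOT and FAT4), beside 12.3% and 11.6%. The WW domain scaffold WWC3 rose (log2FC 0.37 and 0.45, adjusted p = 1.57e-05 and 7.26e-07), and its paralog WWC2 fell in both lines (log2FC -0.77 and -0.47, adjusted p = 2.76e-08 and 4.14e-05). The atypical cadherin FAT4 had 24 counts in the parental libraries together, 0 in LIM1215-R1 and 2 in LIM1215-R2. With a floor of 3 counts over the line in place of 0, LIM1215-R1 was at least 7.74-fold lower, a lower bound without a counting interval. Such a bound cannot rank LIM1215-R1 against the other resistant line. LIM1215-R2 was 11.6-fold lower (exact 95% counting interval 2.89 to 101). The FAT4 call in LIM1215-R2 (adjusted p = 0.00527) was lost with DESeq2 (0.0284) and without parental replicate 2 (0.0311) or 3 (0.0145) or LIM1215-R2 replicate 1 (0.0175), 2 (0.0164) or 3 (0.0264). NF2 (log2FC 0.22) lost its call with total counts, in a fit to the 6 libraries compared, and without parental replicate 1 or 3, LIM1215-R1 replicate 2 or 3, or LIM1215-R2 replicate 2, with adjusted p up to 0.0501. TAOK1 (log2FC -0.22) lost its call without parental replicate 1 or 3 or LIM1215-R1 replicate 2 or 3, with adjusted p up to 0.0601, in a fit to the 6 libraries compared (0.0146), and with GC and length trends removed (log2FC -0.014, adjusted p = 0.831). WWC1, LIMD1 and TAOK2, the most abundant of the list after TAOK1, were not called in any comparison. Between the resistant lines only WTIP passed the test, lower in LIM1215-R2 beside 3.77% of all genes (log2FC -0.51, adjusted p = 0.00174), and not without LIM1215-R1 replicate 2 (0.0112) or LIM1215-R2 replicate 1 (0.024).

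A published 22-gene signature of YAP and TAZ activity holds CCN1, CCN2, ANKRD1, AMOTL2 and LATS2 and 17 further genes, of which 15 could be tested. Most of these 15 were higher in the resistant lines, 10 in LIM1215-R1 and 9 in LIM1215-R2, beside 14.0% and 12.3% of all genes tested. In each line 2 were lower, beside 13.4% and 11.6%. The median log2FC of the 15 was 0.83 and 0.48. IGFBP3, which binds insulin-like growth factors, increased from 32.4 CPM in parental cells to 178 and 138 CPM (log2FC 2.46 and 2.09, adjusted p = 1.09e-22 and 3.09e-21). NT5E, the ectoenzyme CD73, increased from 1.87 CPM to 9.22 and 19.7 CPM (log2FC 2.26 and 3.35) and differed between the resistant lines, with LIM1215-R2 above LIM1215-R1 (log2FC 1.09, adjusted p = 2.43e-07). ARHGEF17 (log2FC 1.56 and 1.46), FJX1 (1.49 and 1.91) and TGFB2 (1.53 and 1.39) rose by similar sizes, with FJX1 at no more than 4.31 CPM and TGFB2 at no more than 2.82 CPM in any library. MYOF, the most abundant of the list, went from 234 CPM to 416 and 441 CPM (log2FC 0.83 and 0.92). The log2FC of 0.30 of ASAP1, a protein that acts on ARF GTPases, in LIM1215-R2 did not pass without parental replicate 1 (adjusted p = 0.0105) or 3 (0.0247) or LIM1215-R2 replicate 2 (0.0173).

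The phosphatase PTPN14, which binds YAP1, fell in both lines with log2FC of -0.22 and -0.40, and so did the kinase NUAK2 with -0.19 and -0.26. In LIM1215-R1 the call of PTPN14 was lost once GC and length trends were removed, where the log2FC was -0.068 (adjusted p = 0.261), and without parental replicate 1 (0.012) or LIM1215-R1 replicate 3 (0.0216). That of NUAK2 was lost with no filter except 1 count (0.0119), in a fit to the 6 libraries compared (0.0159), and without parental replicate 1 (0.011) or 2 (0.0434), LIM1215-R1 replicate 1 (0.0154) or 3 (0.0368), or LIM1215-R2 replicate 1 (0.0102). That of NUAK2 in LIM1215-R2 was lost without LIM1215-R2 replicate 2 (0.0102). Over the whole signature, 20 genes were tested, of which 12 rose and 3 fell in LIM1215-R1, beside 14.0% and 13.4% of all genes, and 10 rose and 4 fell in LIM1215-R2, beside 12.3% and 11.6%. Between the resistant lines, 2 were higher and 4 lower in LIM1215-R2, beside 3.39% and 3.77%. Both comparisons with parental cells share the parental libraries.

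**Figure D4:**
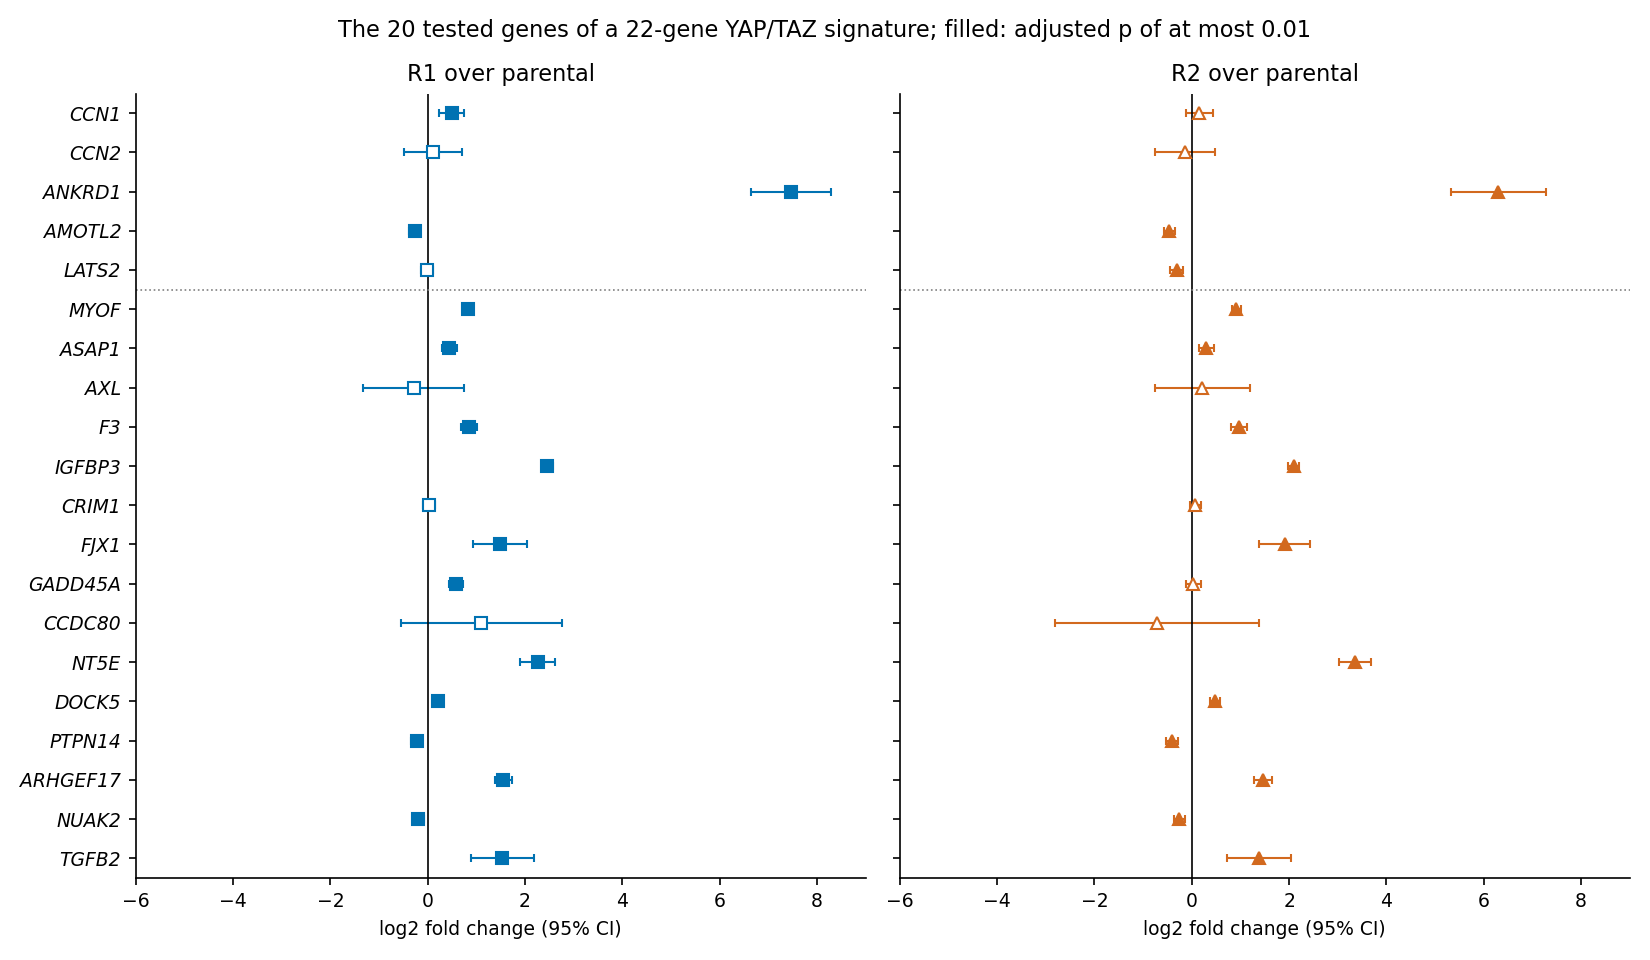
Log2FC (x axis) with 95% confidence intervals of the 20 tested signature genes in LIM1215-R1 (left) and LIM1215-R2 (right) over parental cells, with filled symbols for an adjusted p of at most 0.01 and pathway genes of the first list above the dotted line. Below the line, 10 genes in LIM1215-R1 and 9 in LIM1215-R2 lie to the right with filled symbols, whereas CCN2 is near 0 and AMOTL2 is to the left.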

How the data were processed

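The parental line and both resistant lines were sequenced as stranded poly(A) RNA, in 3 technical replicates each. The authors aligned paired reads with STAR to hg38 and counted them per gene and strand with HTSeq 0.9.1, as the submitters' processing notes and the study's methods state, and deposited raw, unnormalized counts with gene symbols. The gene annotation is not given in the sources used here. Libraries were grouped by the line named in their titles.

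In R 4.3.3, 19102 genes reached 10 counts over the 9 libraries. They were scaled by TMM and tested in edgeR 4.0.16 (limma 3.58.1) with glmQLFit and glmQLFTest, in 1 model with the 3 lines as groups and Benjamini-Hochberg adjustment over all genes tested. Calls needed an adjusted p no larger than 0.01, and differentially expressed genes also a log2 fold change of 1.5 or more in size. The F statistic gave the SE. CPM were scaled with TMM, and CPM per kb divides them by the union of a gene's exons in GENCODE 44, which also gave the coordinates. Counting intervals cover counting error only.

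The pathway genes, the 8 gene lists and the 4 marker lists were chosen with earlier results of these data known. Named were the 10 genes, in each list the genes past the threshold of 1.5 and up to 4 genes of the highest mean CPM, and the 3 genes most like a member of at least 1 CPM that differed at least 2-fold between lines. Other list genes that passed the test were named after their values were seen. The lists' medians and counts are descriptions without a test. The tests were tried on simulated counts first. Alternatives were 2 other filters, DESeq2's size factors, total counts, the DESeq2 1.42.0 Wald test, a replicate block, removal of GC and length trends (known for 86.3% of the genes tested), fits to 6 libraries, other thresholds, and leaving out each library. A comparison of protein sequences had been planned and was not analysed here.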

Additional observations from a re-analysis of the deposited data

Results flagged for a closer look

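LIM1215-R1 and LIM1215-R2 were compared with the same parental libraries, and their effects differed by a direct test between them, the edgeR quasi-likelihood test (Benjamini-Hochberg adjusted), for 3 of the 10 pathway genes. ANKRD1 was lower in LIM1215-R2, with a log2FC of -1.15 (adjusted p = 3.86e-05) and all 3 libraries below all 3 of LIM1215-R1. LATS2 was also lower there, with a log2FC of -0.30 (adjusted p = 0.00192, up to 0.0216 without LIM1215-R2 replicate 1). WWTR1 was higher, with a log2FC of 0.58 (adjusted p = 9.08e-08).

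Beyond the pathway genes, TEAD2 was lower in LIM1215-R2, with a log2FC of -2.53 (adjusted p = 1.8e-09). TAGLN, a smooth muscle actin-binding protein and SRF target, gave a log2FC of -2.46 (adjusted p = 3.37e-13), and MYL9, a myosin light chain, gave -2.52 (adjusted p = 0.000253) from 59 counts in LIM1215-R1 against 10, a ratio of 5.91 (exact 95% counting interval 3.00 to 13.0).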

How the results depend on the processing

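A filter of at least 10 counts in every library removed ANKRD1, so that 0 pathway genes passed the log2FC threshold of 1.5 in either resistant line. Between the resistant lines, 5 pathway genes instead of 3 were called at the looser adjusted p limit of 0.05, and 1 passed a log2FC of at least 1. Signs turned only for values that were not called. LATS2 in LIM1215-R1 went to 0.0020 without the filter, to 0.036 with GC and length trends removed, and ranged from -0.034 to 0.014 with libraries left out. TEAD4 in LIM1215-R1 went to -0.00598 with total counts, to -0.075 with the trends removed, and ranged from -0.00458 to 0.063. CCN2 ranged from -0.12 to 0.32 in LIM1215-R1, from -0.55 to 0.11 in LIM1215-R2 and from -0.65 to 0.013 between them. YAP1 between the resistant lines went to -0.016 with the trends removed, and TGFB2 ranged from -0.33 to 0.16. With these trends removed, YAP1 was called in both comparisons with parental cells (log2FC 0.16 and 0.15, adjusted p = 0.000914 and 0.0028), and AMOTL2 between the resistant lines (-0.18, adjusted p = 0.00516). The cause of these changes was not tested.

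Same-numbered replicates did not pair consistently: their deviations correlated from -0.11 to 0.27 over 13412 genes in 9 pairs, over 0.1 in 3. With each library counted once per comparison, 7 of 18 correlated best with their own number. These were 4 of 6 in LIM1215-R1 against parental cells, 1 of 6 in LIM1215-R2 against parental cells and 2 of 6 between the resistant lines. A replicate block kept the pathway genes called at 6 in both resistant lines and gave 1 more call, AMOTL2 between the resistant lines (log2FC -0.19, adjusted p = 0.00934). CCN2, with 14 to 37 counts per library, and ANKRD1 in parental cells, with 2 counts in all, are limited by depth.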

Other observations

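Other transcription factors and genes that often act with YAP and TEAD also differed between the lines. Of 8 AP-1 factors, LIM1215-R1 was higher in 5 and lower in 1, and LIM1215-R2 higher in 3 and lower in 2, beside 14.0%, 13.4%, 12.3% and 11.6% of all genes tested. FOSL1 (FRA1) rose from a mean of 16.5 CPM in parental cells to 43.2 and 41.4 CPM (log2FC 1.40 and 1.33, adjusted p = 2.35e-13 and 6.61e-13), and JUN from 9.26 CPM to 16.9 and 14.4 CPM (log2FC 0.86 and 0.63). FOS fell in both lines, from 16.4 CPM to 10.5 and 9.60 CPM (log2FC -0.63 and -0.77). The most abundant of the list, JUND, FOSL2 and JUNB, did not rise in both lines. Against parental cells, JUND and JUNB were called higher in LIM1215-R1 only (log2FC 0.36 and 0.38), and FOSL2 lower in LIM1215-R2 only (-0.40). Of 8 genes of SRF and its targets, 7 were tested, with 6 higher in LIM1215-R1 and 4 higher in LIM1215-R2, beside 14.0% and 12.3% of all genes. One of these in LIM1215-R2 was SRF itself (log2FC 0.23, adjusted p = 0.00275), which did not pass without parental replicate 1 (0.0179) or 3 (0.0115) or LIM1215-R2 replicate 1 (0.0121) or 3 (0.016). Among the targets, the cytoskeletal genes TPM1 (log2FC 0.61 and 0.66) and FHL2 (0.94 and 0.85) rose in both, whereas TAGLN was at 3.29 CPM in parental cells, 16.2 CPM in LIM1215-R1 and only 2.94 CPM in LIM1215-R2.

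Of 7 intestinal genes tied to YAP in the literature of tissue repair, 6 were tested, and 5 were higher in each resistant line, beside 14.0% and 12.3% of all genes tested. This list, like the others, was chosen with earlier results of these data known, so its counts are descriptions without a test. The epidermal growth factor receptor ligands EREG and AREG rose from 34.5 to 287 and 139 CPM and from 19.9 to 81.5 and 63.5 CPM, with log2FC of 3.06 and 2.01 for EREG and 2.03 and 1.67 for AREG. The alarmin IL33 went from 0.705 CPM to 22.2 and 19.7 CPM (log2FC 4.93 and 4.76) and ANXA1 from 17.6 CPM to 90.5 and 82.4 CPM (log2FC 2.35 and 2.22), with adjusted p of at most 3.74e-19 for ANXA1. EREG was also lower in LIM1215-R2 than in LIM1215-R1 (log2FC -1.04, adjusted p = 6.04e-13). CLU, the fifth gene, rose in LIM1215-R1 (log2FC 0.98, adjusted p = 3.45e-07). Its log2FC of 0.50 in LIM1215-R2 (adjusted p = 0.00381) did not pass without parental replicate 1 (0.0103) or 3 (0.0136), or LIM1215-R2 replicate 1 (0.0366) or 3 (0.0163).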
